A study of Homo sapiens with 8 samples.

Results

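The BCL2 family was examined through 10 of its genes in MOLM-13 cells, a human acute myeloid leukemia line: BCL2, BCL2L1, BCL2L11, BCL2A1, MCL1, BAX, BAK1, BID, BAD and BBC3. The members were chosen by name, as the transcripts that GENCODE version 44 assigns to these genes. They comprised 87 of the 254070 transcripts in the table, of which 32 had a count, and 10 of the 16474 genes with a count. One group of 4 libraries carried a dox-inducible shRNA against PTBP1 (shPTBP1, genotype PTBP1 KD), and the other 4 carried a scrambled shRNA (shSCR, named shControl in the labels, genotype WT). Both groups received dox for 9 days, and total RNA was read as full-length cDNA on a nanopore sequencer. A single shRNA was set against a single control, so that an effect of low PTBP1 and any other difference between the cells cannot be told apart. The labels call the libraries biological replicates without saying how they were made, so that p-values measure the spread between these libraries only.

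BCL2 family proteins decide whether the outer mitochondrial membrane is opened during apoptosis. BAK1 and BAX form the pores, BCL2, Bcl-xL (from BCL2L1), MCL1 and BCL2A1 restrain them, and the BH3-only proteins BID, BAD, BIM (from BCL2L11) and PUMA (from BBC3) counter the restraint or activate the pore formers. Several of these genes are spliced into proteins of opposite or altered activity, and PTBP1 is an RNA-binding protein that acts on splicing through pyrimidine-rich sequence.

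The splice choices that define known forms of 3 members are shown first, from the hg38 genome, 5′ to 3′ on the transcript strand. The BAK1 microexon (chr6:33574496-33574625, minus strand, exon in capitals) is shown with the 100 intron bases before it, because its inclusion is known to shift the reading frame of BAK1. The BCL2L1 stretch (chr20:31721647-31721863, minus strand) holds the donor of the short form and then that of the long form, whose GT dinucleotides are in capitals. The long form keeps the bases up to the second GT as coding sequence, and the last 8 bases, from that GT on, are intron in both forms. The BID stretch (chr22:17750097-17750116, minus strand) begins with the start codon of the full-length protein, in capitals, and holds the last 12 bases of the exon of 70 bases, which are coding, followed by 8 bases of the intron.
BAK1 microexon: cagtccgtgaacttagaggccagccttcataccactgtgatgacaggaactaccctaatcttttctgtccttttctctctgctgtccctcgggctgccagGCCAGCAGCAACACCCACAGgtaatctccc
BCL2L1 exon end: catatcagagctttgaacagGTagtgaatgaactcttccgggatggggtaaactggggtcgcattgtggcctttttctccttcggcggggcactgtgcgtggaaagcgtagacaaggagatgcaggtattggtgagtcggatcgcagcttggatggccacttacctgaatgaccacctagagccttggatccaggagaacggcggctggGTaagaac
BID exon end: ATGgactgtgaggtcagagg

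The 20 bases of the BAK1 microexon are not a multiple of 3. The 100 bases before it held 62 pyrimidines, against a median of 55 in the same window before 189287 internal exons of protein-coding transcripts, 80.7% of which had fewer. Searched on the transcript strand only, this window held TCTT 1 time and CTCTCT 1 time. TCTT occurred in 60.7% of such windows and CTCTCT in 8.94%. The donors of BCL2L1 lie 189 bases apart, or 63 codons, and this stretch held 84 pyrimidines, TCTT 1 time and no CTCTCT.

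The libraries held 1528449 to 1613342 counts. PTBP1 fell from 47.5 ± 7.81 normalised CPM (counts per 1000000) in shSCR to 9.88 ± 3.55 in shPTBP1 (SD, n = 4 each, adjusted p = 7.18e-05, edgeR), and its paralog PTBP2 rose from 1.45 ± 0.814 to 124 ± 5.44 (adjusted p = 2.14e-10, edgeR). All 7 markers of myeloid leukemia cells had counts, but SPI1, which such cells use, had 1 count over the 8 libraries, so a low count in this table does not show that a gene is silent. The T cell and erythroid markers were at 0, and no B cell marker had more than 10 counts or epithelial marker more than 5. The fibroblast markers summed to 9.49 to 14.5 CPM in shPTBP1 and 8.34 to 11.1 in shSCR, mostly from COL1A2 with 119 counts. The summed CPM of the myeloid markers, led by LYZ with 3838 counts, was 585 to 706 in shPTBP1 and 523 to 584 in shSCR. Within that list CSF1R fell (log2 fold change -0.97, adjusted p = 0.0375, edgeR), and FLT3, which was not tested, was at 2.93 CPM in shPTBP1 and 5.56 in shSCR. The part of these markers in the results was not tested.

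Of the 10 members, 6 passed the filter on low counts and were tested. BAK1 fell, none rose, and BCL2L1, MCL1, BAX, BID and BAD did not pass the test. Among all 7597 genes tested, 3.19% were called lower and 2.36% higher, 5.54% in all. An unadjusted p under 0.05 was reached by 1 of the 6 members and by 19.2% of all genes tested. The median log2 fold change of the 6 tested members was -0.26, and that of all genes tested was -0.00014. BCL2, BCL2A1, BCL2L11 and BBC3 had too few counts for the fit.

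**Figure D1:**
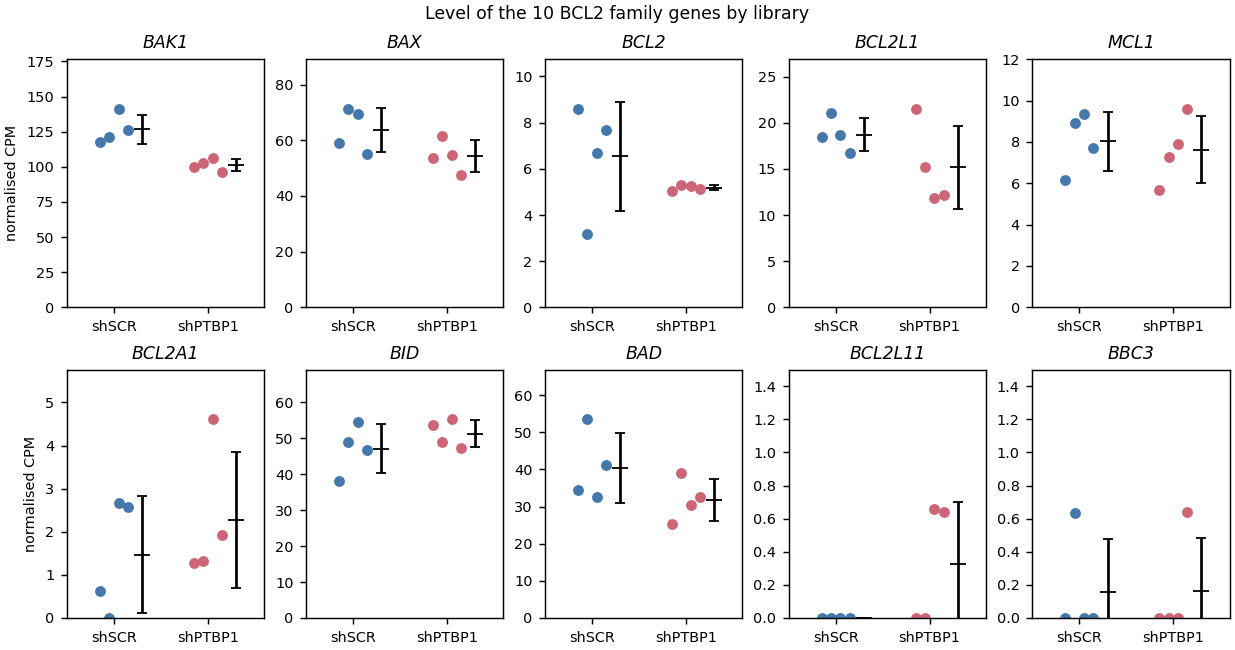
Normalised CPM (vertical axes, each from 0) of the 10 genes in each of the 8 libraries, with shSCR in blue and shPTBP1 in red; black marks give the mean and SD of 4 libraries. The groups are apart for BAK1, at 96.0 to 107 in shPTBP1 and 118 to 141 in shSCR, and they overlap for the other genes.

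The levels in shSCR spanned a wide range when divided by transcript length. Because the cDNA was read at full length, a count need not rise with length. The division can then place long transcripts too low. BAX was at 70.5 ± 8.68 CPM per kb and BAK1 at 58.4 ± 4.79 (SD, n = 4), and BAD followed at 43.2 ± 10.1. Neighbours in this order overlapped among these 3 genes. BID, at 25.6 ± 3.74 CPM per kb, and BCL2L1, at 7.09 ± 0.674, each stood apart from its neighbours. MCL1 (2.03 ± 0.361 CPM per kb), BCL2A1 (1.86 ± 1.72) and BCL2 (1.14 ± 0.414) overlapped in that order. The place of MCL1 rests on 50 counts over the 4 shSCR libraries. The annotation used for counting is not given in the sources used here, so that the low level of MCL1 may not be that of the cells. BBC3 and BCL2L11 were lowest, with 1 count and no count in the 4 shSCR libraries. The order depends on the division by length. Without it BAK1 (127 CPM) stood above BAX (63.7 CPM), and BID (47.2 CPM) above BAD (40.4 CPM). BCL2 (6.54 CPM) likewise stood above BCL2A1 (1.46 CPM).

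BAK1, a pore former that sits in the outer mitochondrial membrane (chr6:33572547-33580293), was the member with the smallest p. Its level in the shPTBP1 libraries was 99.96, 102, 107 and 96.0 CPM, and in the shSCR libraries 118, 121, 141 and 126. The groups did not overlap, with all shPTBP1 values the lower ones. Groups that do not overlap, in either direction, were seen in 12.7% of all genes tested. The log2 fold change was -0.32 (SE 0.08, derived from the p, 95% interval -0.50 to -0.14, adjusted p = 0.0400, edgeR), and the two-sided exact permutation p was 0.0286, the smallest that 4 against 4 libraries allow. The call was close to the threshold. It was lost in 4 of 7 other fits over all 8 libraries, with DESeq2 at an adjusted p of 0.117, limma-voom at 0.0506, no filter on low counts at 0.0767 and the replicate block at 0.0566. It was also lost without any 1 library other than shSCR replicate 1 (adjusted p between 0.0562 and 0.120, edgeR), while the log2 fold change was negative in all 15 alternatives, from -0.36 to -0.27.

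**Figure D2:**
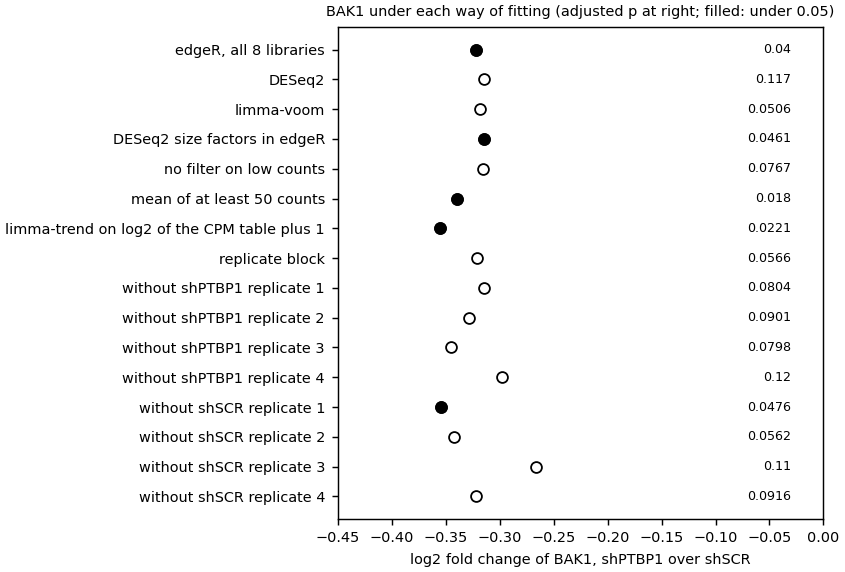
Log2 fold change of BAK1, shPTBP1 over shSCR (horizontal axis), in the edgeR fit and in 15 alternatives (rows), with the adjusted p at the right; filled points have an adjusted p under 0.05. The points stay between -0.36 and -0.27, and most are open.

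All BAK1 counts fell on BAK1-201, the transcript of 211 codons without the microexon. BAK1-201 had 625 counts in shPTBP1 and 791 in shSCR, and its own log2 fold change was -0.33 (SE 0.08, adjusted p = 0.0312, edgeR, over 10207 transcripts, of which 5.45% were called in either direction). This call was lost without a filter on low counts (adjusted p = 0.0891, edgeR), with the replicate block (0.0503) and without any 1 library other than shSCR replicates 1 and 2 (0.0624 to 0.104). BAK1-202, which holds the microexon shown above and has a coding sequence of 459 bases in place of 633, had no count in either group. These depths allow an included share of the counted RNA of up to 0.480% in shPTBP1 and 0.379% in shSCR, with 3 counts as the limit. RNA lost before sequencing is not counted, so that inclusion at the time of splicing was not measured. The table lists whole transcripts, so that a read with the microexon would count here only if it was assigned to BAK1-202.

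BAX, the other pore former (chr19:48954815-48961798), had 53.8, 61.4, 54.6 and 47.4 CPM in the shPTBP1 libraries and 59.0, 71.3, 69.4 and 55.2 in shSCR. The groups overlapped. The log2 fold change was -0.23 (SE 0.12, 95% interval -0.49 to 0.03, adjusted p = 0.321, edgeR). BAX-202, the transcript of the main form with 192 codons, took 80.5 ± 5.42% of the counts in shPTBP1 and 80.3 ± 2.74% in shSCR. BAX-201, which keeps the last intron and codes for 218 codons, took 19.5 ± 5.42% and 19.3 ± 2.27% (SD, n = 4). The exact permutation p of these shares was 0.971 and 0.943.

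Among the members that restrain the pore formers, BCL2L1 (chr20:31664452-31723989) had 21.5, 15.2, 11.8 and 12.2 CPM in shPTBP1 and 18.4, 21.0, 18.7 and 16.7 in shSCR. The highest value of all came from shPTBP1 replicate 1, while the other 3 shPTBP1 libraries were below all shSCR libraries. The log2 fold change was -0.30 (SE 0.22, 95% interval -0.76 to 0.17, adjusted p = 0.502, edgeR). The long form of 233 codons, which uses the second donor shown above and is known as Bcl-xL, took 94 of 94 counts in shPTBP1 and 113 of 117 in shSCR. The short form of 170 codons, Bcl-xS, which uses the first donor and is known to promote death, had the other 4 counts, with 2 each in shSCR replicates 2 and 4. Its share in shSCR was 3.42% (exact 95% interval 0.939 to 8.52%). The 0 of 94 counts in shPTBP1 gave an exact 95% interval of 0 to 3.85%, and these intervals overlap. The share of the long form was 100% in every shPTBP1 library and 96.6 ± 4.03% in shSCR (two-sided exact permutation p = 0.429). A difference was not detected at this depth, where the short form had 4 counts in all.

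The long form of BCL2L1 was spread over several transcripts that differ in their first exon or its splice sites. BCL2L1-207 had 23 counts in shPTBP1 and 27 in shSCR, BCL2L1-214 had 25 and 23, BCL2L1-210 had 15 and 28, BCL2L1-204 had 16 and 17, and BCL2L1-209 had 9 and 13. None had enough counts for the transcript test. ABALON, a gene on the opposite strand that shares 1735 exon bases with BCL2L1, had 2 counts.

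BCL2 itself (chr18:63123346-63320128), the target of venetoclax, had 8 counts in each shPTBP1 library and 14, 5, 10 and 12 in the shSCR libraries. Its level was 5.18 ± 0.109 CPM against 6.54 ± 2.37, and the shSCR values lay on both sides of the shPTBP1 values (two-sided exact permutation p = 0.314). The spliced transcript BCL2-201 had 16 counts in shPTBP1 and 12 in shSCR. The single-exon transcript BCL2-203, which ends in the intron that follows the first coding exon, had 16 and 29. It thus took 50% of the counts (exact 95% interval 31.9 to 68.1%) in shPTBP1 and 70.7% (54.5 to 83.9%) in shSCR, and these intervals overlap. With only 5 counts of BCL2 in shSCR replicate 2, this share was not tested.

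MCL1 (chr1:150560895-150579738), a short-lived restrainer, had 5.69, 7.27, 7.90 and 9.60 CPM in shPTBP1 and 6.14, 8.91, 9.34 and 7.70 in shSCR. The log2 fold change was -0.07 (SE 0.29, 95% interval -0.70 to 0.56, adjusted p = 0.931, edgeR), an interval that holds large changes either way. MCL1-202, the long form of 350 codons, had 46 of 47 counts in shPTBP1 and 49 of 50 in shSCR. MCL1-201, which skips the exon of 248 bases and gives the death-promoting short form, had 0 counts, which allows up to 6.38% and 6%. BCL2A1 (chr15:79960892-79971196), a restrainer of blood cells, had 2, 2, 7 and 3 counts in shPTBP1 and 1, 0, 4 and 4 in shSCR (two-sided exact permutation p of the CPM 0.486). BCL2A1-201 held 11 and 6 of these counts and BCL2A1-202, with an added exon of 56 bases, 3 and 3.

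**Figure D3:**
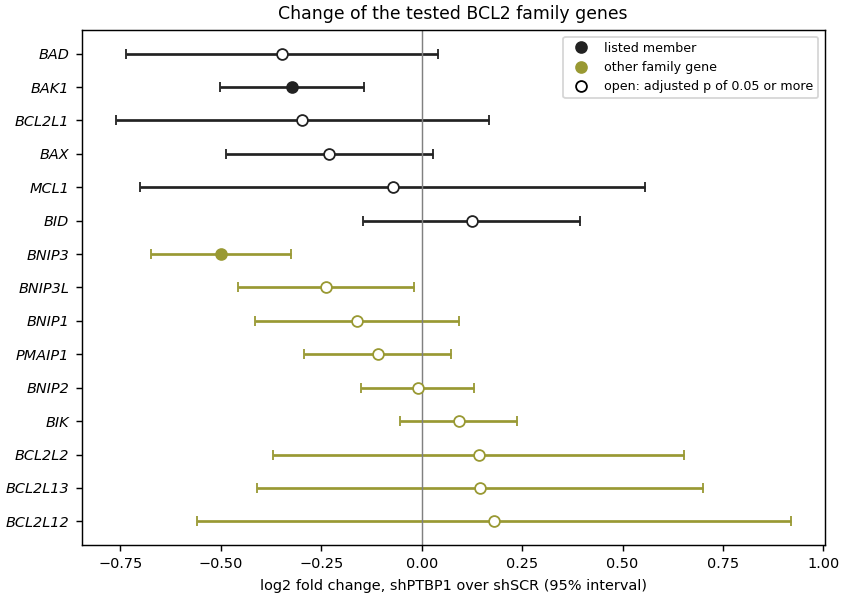
Log2 fold change, shPTBP1 over shSCR, with the 95% interval (horizontal axis) of the 6 tested members and of 9 other tested BCL2 family genes (rows); filled points have an edgeR adjusted p under 0.05. BAK1 at -0.32 and BNIP3 at -0.50 are filled.

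BID (chr22:17734138-17774770), a BH3-only protein that caspase-8 cleaves to activate the pore formers, was the 1 tested member with a positive log2 fold change, 0.12 (SE 0.13, 95% interval -0.14 to 0.39, adjusted p = 0.651, edgeR). Its level was 53.8, 48.9, 55.3 and 47.4 CPM in shPTBP1 and 38.1, 49.0, 54.7 and 46.8 in shSCR. The groups overlapped. BID had the largest difference of shares among the protein classes that were tested. BID-211, whose product of 195 codons starts at the ATG shown above, took 72.9, 62.2, 61.9 and 62.2% of the counts in shPTBP1 and 67.7, 70.1, 80.5 and 76.7% in shSCR. In 3 of the 4 shPTBP1 libraries the share was below every shSCR library, and replicate 1 lay among them. The means were 64.8 ± 5.43% and 73.8 ± 5.87% (two-sided exact permutation p = 0.0857).

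The class of 99 codons, which starts at a later codon, took the remaining share of BID almost entirely. It comprised BID-204, BID-203 and BID-210 and took 33.3 ± 4.24% of the counts in shPTBP1 and 25.3 ± 5.37% in shSCR (two-sided exact permutation p = 0.0571). BID-204 had a log2 fold change of 0.41 (SE 0.21, 95% interval -0.04 to 0.87, adjusted p = 0.312, edgeR) and BID-211 one of -0.07 (SE 0.17, adjusted p = 0.864). The exon of 70 bases that holds the start codon was included in 211 of 312 informative counts in shPTBP1 and 222 of 292 in shSCR. The library shares were 67.4 ± 4.57% and 75.6 ± 5.40% (two-sided exact permutation p = 0.0857). The exon of 211 bases was included at 95.1 ± 4.24% and 98.3 ± 0.653% (p = 0.371, same exact test). None of these differences passed the test.

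**Figure D4:**
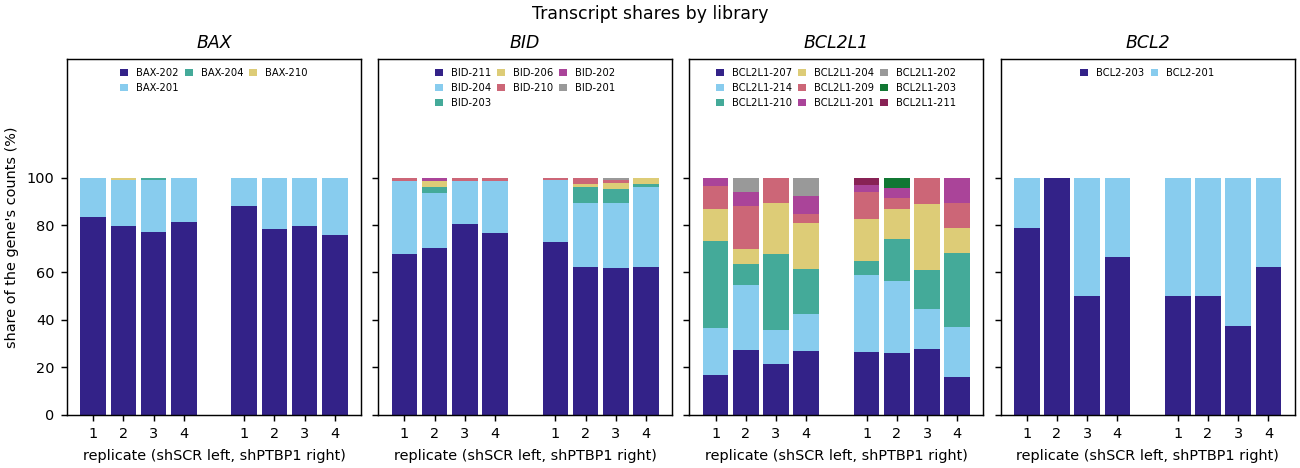
Share of each gene's counts on each transcript (vertical axis, %) for BAX, BID, BCL2L1 and BCL2, with 1 bar per library, shSCR at the left and shPTBP1 at the right of each panel. BID-211 lies at 61.9 to 72.9% in shPTBP1 and 67.7 to 80.5% in shSCR, and the BCL2 bars rest on 5 to 14 counts each.

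BAD (chr11:64269830-64284704), a BH3-only protein held inactive by phosphorylation, had 25.3, 39.0, 30.3 and 32.7 CPM in shPTBP1 and 34.4, 53.5, 32.7 and 41.1 in shSCR. The groups overlapped, and the log2 fold change was -0.35 (SE 0.18, 95% interval -0.73 to 0.04, adjusted p = 0.319, edgeR). Its form of 168 codons took 196 of 196 counts in shPTBP1 and 252 of 253 in shSCR. BCL2L11 (chr2:111119378-111168444) had 1 count each in shPTBP1 replicates 3 and 4 and none in shSCR. Both fell on BCL2L11-204, of 198 codons. BBC3 (chr19:47220822-47232766) had 1 count in shPTBP1 and 1 in shSCR, both on BBC3-206, a transcript with no annotated coding sequence. No fold is given for these 2 genes, and no statement on the forms of BIM can be made at this depth.

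Over all members, GENCODE lists 58 cassette exons and alternative splice sites, of which 20 in 5 genes had at least 10 informative counts in every library. The share varied between libraries in 8 of them, in some by a single count. Events with a constant share cannot set the groups apart. Neither can events with equal shares of 0 or 100% in libraries of both groups. These were the events that varied by a single count and the donors of BCL2L1. Only the BID exons of 70 and 211 bases were free of such ties. The groups of shares did not overlap in 0 of the 8, a count that rests on those BID exons alone. Over all genes they did not overlap in 3.92% of the 20866 assessed events with a varying share. Isoform usage could be tested for 4 transcripts (BAX-201, BAX-202, BID-204 and BID-211), and diffSpliceDGE of edgeR called 0 of them. The smallest unadjusted p of diffSpliceDGE was 0.199, for BID-204. Among the 5464 transcripts tested in this way, 1.12% were called.

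Of 15 other BCL2 family genes, 9 were tested. Of these, 1 fell and none rose, against 3.19% called lower and 2.36% called higher among all genes tested. The median log2 fold change of the 9 was -0.01. The gene that fell was BNIP3, a mitochondrial BH3-like protein that marks mitochondria for removal. It had 339, 332, 336 and 274 CPM in shPTBP1 and 504.5, 448, 431 and 427 in shSCR. The log2 fold change was -0.50 (SE 0.08, adjusted p = 0.00336, edgeR), and it was called in all 15 alternatives. Of 17 proteins that act with the family at mitochondria or on its turnover, 12 were tested and edgeR called 0, with a median of 0.02. DESeq2 and limma-voom also called 0. In edgeR an unadjusted p under 0.05 was reached by 2 of the 12, MTCH2 and YWHAQ, by 2 of the 9 other family genes, BNIP3 and BNIP3L, and by 19.2% of all genes tested. MTCH2, YWHAQ and BNIP3L did not pass the adjusted test and are named after their values were seen.

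Of 22 splicing factors known to act on BCL2L1, MCL1, BCL2L11 or BAK1, 21 were tested, 1 fell and 2 rose, with a median log2 fold change of 0.07. Among all genes tested, 3.19% were called lower and 2.36% higher. An unadjusted p under 0.05 was reached by 6 of the 21 factors, PTBP1 and PTBP2 among them, and by 19.2% of all genes tested. PTBP1 and PTBP2, given above, are the targeted gene and its paralog. The other factor called was TRA2B, an SR-like protein, at 79.7, 114, 100.7 and 87.7 CPM in shPTBP1 and 59.0, 56.0, 74.0 and 70.6 in shSCR. The groups did not overlap, as in 12.7% of all genes tested. The log2 fold change of TRA2B was 0.56 (SE 0.13, adjusted p = 0.0242, edgeR). This call was lost without shPTBP1 replicate 2 (adjusted p = 0.0822, edgeR) or 3 (0.0812) and without shSCR replicate 1 (0.0606) or 2 (0.0659).

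The 3 tested genes whose log2 CPM followed that of BAK1 most closely over the 8 libraries were NDUFC1 (Pearson r = 0.983), PQBP1 (r = 0.979) and RFXANK (r = 0.970). The libraries fall into the 2 groups in which BAK1 differed, and these values are given as a description only. The log2 fold changes of these genes were -0.67, -0.30 and -0.36.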

How the data were processed

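Nanopore cDNA libraries were made with the ONT SQK-PCS109 and SQK-PBK004 kits. Alignment by the authors used minimap2 and the hg38 build, and reads of low mapping quality were removed before StringTie made transcript counts. Tool versions are not given in the sources used here. The deposited counts are whole numbers without normalization. The deposited table named TPM holds CPM, the count over the library total (within 1e-06).

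Transcripts were matched by Ensembl identifier without version to GENCODE version 44 (252562 of 254070, the other 1508 were left out) and summed by gene. Gene and transcript counts went through filterByExpr (minimum count 10), TMM and glmQLFTest, the quasi-likelihood F-test in edgeR 4.0.16 (R 4.3.3), with Benjamini-Hochberg adjustment over all genes or transcripts and calls at an adjusted p under 0.05. The SE of a log2 fold change was derived from its p. Isoform usage was tested with diffSpliceDGE (also a change of share of at least 10 points). Shares per library were compared by two-sided exact permutation tests (7 protein classes and 8 varying events). Intervals and limits of 3 counts for a count of 0 cover counting error only, since amplified cDNA molecules are not independent. The edgeR tests were checked on simulated data. Alternatives used DESeq2 1.42.0, limma 3.58.1, other filters, the replicate block and each library left out.

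The members and lists were chosen with earlier results of these data known. Genes named are the 10 members, PTBP1 and PTBP2, list genes that were called, and the 3 genes most like the called member with the smallest p. Markers, an overlapping gene and list genes that were not called are named beside the result or count they touch. Transcripts named have a share of at least 10% in either group, define a known form or belong to a protein class that is described. Within a group, squared differences between libraries were 2.12 to 3.94 times the counting error, so none is a copy of another.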

Additional observations from a re-analysis of the deposited data

Results flagged for a closer look

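Among 58 groups of 4 library values (CPM, transcript shares and exon shares), 9 held 1 library far from the other 3, where the gap to the nearest value exceeded Dixon's 95% critical share of the range. Chance flags about 1 group in 20 where values are normally distributed, a rate that does not hold for groups of few counts. Of the 9 flags, 6 rest on a single count in a group otherwise at 0, which this rule always flags. These are the CPM of BBC3 in shPTBP1 replicate 4 (0.640) and in shSCR replicate 2 (0.637), and in shSCR the BAD exon of 140 bases (2.04%), the BAX exon of 98 bases (0.962%), a BID acceptor site (1.37%) and the BID exon of 95 bases (1.33%). The share of BID-211 was 72.9% in shPTBP1 replicate 1, above the 61.9 to 62.2% of the other 3. In shPTBP1, BCL2L1-207 was lowest in replicate 4 (15.8%) and BCL2L1-209 in replicate 2 (4.35%), on 3 counts and 1 count.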

How the results depend on the processing

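The BAK1 log2 fold change was negative in all 15 alternatives. Its call, and so the count of members called lower, went from 1 to 0 with DESeq2 (-0.31), limma-voom (-0.32), no filter on low counts (-0.32) and the replicate block (-0.32), and the range with 1 library left out was -0.35 to -0.27, with 0 to 1 members called. The count of member transcripts called for level went from 1 to 0 without a filter and with the replicate block, and was 0 to 1 with 1 library left out. Deviations of same-numbered libraries from their group means showed little correlation (-0.0328 to 0.00889). This does not show whether the libraries were made as pairs. The replicate block gave BAK1 an adjusted p of 0.0566 (edgeR).

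BCL2L1, MCL1, BAX, BID and BAD were called in none of the 72 values that the alternatives gave (MCL1 had no adjusted p in DESeq2, and MCL1 and BCL2L1 did not reach a mean of 50 counts). With 1 library left out, BCL2L1 ranged from -0.51 to -0.19, BID from 0.034 to 0.20, BAD from -0.46 to -0.18 and BAX from -0.29 to -0.17. MCL1 ranged in such fits from -0.20 to 0.047 (positive without shPTBP1 replicate 1 or shSCR replicate 3, 0.0068), MCL1-202 from -0.19 to 0.028 (positive in the same fits, 0.0076 in the second) and BID-211 from -0.20 to 0.05 (positive without shSCR replicate 3). The usage change of BAX-201 ranged from -1.34 to 2.85 points and turned negative in 4 such fits, and that of BAX-202 from -2.38 to 1.80 points and in 3. The splicing regulators called higher were 1 to 2 with 1 library left out, and those called lower 0 with a mean of at least 50 counts, a filter that removed PTBP1. The genes called in all were 107 to 279 lower and 77 to 216 higher over the alternatives, against 242 and 179. The cause was not tested. At these depths 4 of 10 members could not be tested, and forms of BCL2, BCL2A1, BCL2L11 and BBC3 rest on few counts.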
